A study of Mus musculus with 8 samples.

Results

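The SIBLING genes (small integrin-binding ligand, N-linked glycoproteins) Dmp1, Mepe, Spp1, Ibsp and Dspp were examined in long bones of Hyp and wild-type (WT) mice. Members were all probe sets that the platform annotation assigned to exactly 1 of these 5 gene symbols. The rule found 7 probe sets of 45037 tested, which covered 4 of the 5 genes: Dmp1 with 3, Mepe with 1, Ibsp with 2 and Dspp with 1. Spp1 (osteopontin) was not analysed here. RNA came from tibiae and femora of males at 12 days of age, and 4 arrays of Hyp mice were compared with 4 arrays of WT mice. Hyp mice carry a deletion in the 3′ part of Phex on the C57BL/6 background, and are a model of X-linked hypophosphatemia. The strain label of the WT arrays reads only wild type, so the background of the controls is not stated. A standard diet is described, and no further allele or agent is named for either group. Because yields were low, 2 bone samples of 1 genotype were combined for each RNA. The labels call the 4 arrays of a genotype separate samples but do not give the number of animals in each, so p-values reflect only how these RNA preparations varied.

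SIBLING proteins are acidic, heavily phosphorylated glycoproteins that cells of bone and dentin secrete into the matrix they mineralize. They carry an RGD motif that integrins bind, and their genes stand together in 1 cluster. Mepe, Dmp1 and Spp1 encode proteins with an ASARM motif, an acidic serine- and aspartate-rich stretch that, once phosphorylated and released as a peptide, slows mineralization. Phex encodes an endopeptidase on the surface of osteoblasts and osteocytes that degrades ASARM peptides, so the family holds substrates of the enzyme that Hyp mice lack.

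The deposited values were log2 values centred for each probe set, so that the median of its 8 values was 0. They show differences between arrays, but no level of expression, no detection and no order of levels between genes. For the same reason the labelled tissue could be checked only through differences of markers, not through their presence. Phex differed by -8.31 ± 0.21 on the log2 scale at 1 probe set and by -5.03 ± 0.20 at the other, lower in Hyp at both (SE; limma adjusted p = 5.22e-08 and 2.15e-06). Their position with respect to the deletion is unknown here, so they may not check the genotype directly. Fgf23, the phosphate-lowering hormone that is high in this disorder, differed by 5.61 ± 0.19 in the same fit (higher in Hyp). The groups separated on the first principal component (39.2% of the variance). WT replicate 3 stood apart on the second component at 38.4, against -17.5 to 10.3 for the other 7 arrays, and the mean of 14 skeletal muscle markers was 1.91 there and -1.34 in Hyp replicate 2, against -0.612 to 0.307 elsewhere. Values with and without these 2 arrays are given where a result rests on them.

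In the RefSeq table of the mouse assembly GRCm38.p6, the 5 genes lie on chromosome 5 in the order Dspp, Dmp1, Ibsp, Mepe and Spp1, within 270 kb. The array files name no build of their own. Dspp spans chr5:104170703-104180127, Dmp1 chr5:104197575-104214102, Ibsp chr5:104299287-104311472 and Mepe chr5:104325329-104338611, all annotated as genes. The table lists 1 other gene among them. Promoter sequences were found by symbol for 4 of the 5 genes. The 250 bases before the annotated start are shown for the 3 neighbours in the cluster with both a sequence and array values, since 1 of them rose in Hyp bone and the other 2 did not pass the test. The sequences are RefSeq's (GRCm38.p6, plus strand, 5′ to 3′). They run chr5:104325079-104325328 for Mepe, chr5:104197325-104197574 for Dmp1 and chr5:104299037-104299286 for Ibsp. Capitals mark matches on either strand to a Runx motif (ACCACA), an E-box (CANNTG), the homeodomain core TAATTA, the GC box GGGCGG, the CCAAT box or the TATA box motif TATAAA.
Mepe: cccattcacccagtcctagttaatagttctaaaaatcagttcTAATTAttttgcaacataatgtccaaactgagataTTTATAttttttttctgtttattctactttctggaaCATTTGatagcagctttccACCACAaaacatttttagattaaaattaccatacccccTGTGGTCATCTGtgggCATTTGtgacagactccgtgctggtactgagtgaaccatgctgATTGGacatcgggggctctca
Dmp1: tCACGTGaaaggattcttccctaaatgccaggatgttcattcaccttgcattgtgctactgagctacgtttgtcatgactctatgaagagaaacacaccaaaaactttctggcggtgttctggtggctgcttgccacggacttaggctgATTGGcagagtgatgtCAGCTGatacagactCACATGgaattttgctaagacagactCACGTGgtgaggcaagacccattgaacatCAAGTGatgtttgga
Ibsp: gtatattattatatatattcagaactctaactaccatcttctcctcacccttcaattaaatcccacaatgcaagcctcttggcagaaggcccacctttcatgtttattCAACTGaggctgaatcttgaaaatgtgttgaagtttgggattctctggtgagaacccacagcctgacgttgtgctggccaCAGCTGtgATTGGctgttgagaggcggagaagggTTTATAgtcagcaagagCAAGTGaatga
The window of Mepe held 2 Runx matches, beginning 118 and 80 bases before the start, and 1 homeodomain core. Neither motif was found in the windows shown for Dmp1 and Ibsp. Dmp1 and Spp1 each had 2 windows on record. For each, only the 1 ending at the annotated gene start was searched, so the other window is not described here. The Runx motif was not particular to Mepe in the family. The window of Spp1, a gene without array values here and not shown, held 1 match, beginning 128 bases before the start. The Runx match of Mepe at 80 bases, on the minus strand, runs directly into an E-box at 74 bases without overlap. Dmp1 had 5 E-boxes, against 3 each for Mepe and Ibsp, and each of the 3 windows had 1 CCAAT box on the minus strand. A TATA box match on the minus strand began 28 bases before the start of Ibsp and 173 bases before that of Mepe. No GC box was found in these 3 windows. Of 32841 windows of the same length in the table, 14.0% held the Runx motif, 4.84% the homeodomain core, 66.2% an E-box, 32.7% a GC box, 33.9% a CCAAT box and 12.4% a TATA box. A match of this kind describes letters, not a bound site.

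Mepe, which encodes the matrix extracellular phosphoglycoprotein of osteocytes and late osteoblasts, was the 1 measured member past the threshold. Its probe set 1421650_at had log2 values of 0.508, 0.619, 0.533 and 0.0396 in Hyp bones, against -0.0396, -0.537, -0.430 and -0.756 in WT bones. All 4 Hyp arrays lay above all 4 WT arrays, with Hyp replicate 4 and WT replicate 1 nearest to each other. The means were 0.425 ± 0.261 in Hyp and -0.440 ± 0.300 in WT (SD, n = 4 each). The difference was 0.87 ± 0.16 (SE), a 1.82-fold higher value with a 95% confidence interval of 1.43 to 2.33 (limma, adjusted p = 0.00918 over all probe sets). Adjusted over 18193 gene means, the p was 0.00506, and 47 genes past the threshold rose by more. Without WT replicate 3 and Hyp replicate 2 the difference was 0.80 (limma, adjusted p = 0.0442 for the probe set and 0.028 for the gene mean). With the muscle marker mean of each array in the model it was also 0.80. In a plain linear model, without limma's moderated variance, Mepe did not pass (adjusted p = 0.071 for the probe set and 0.0516 for the gene mean). In whole bone, a change in the number of cells of a type and a change in RNA per cell cannot be told apart.

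**Figure D1:**
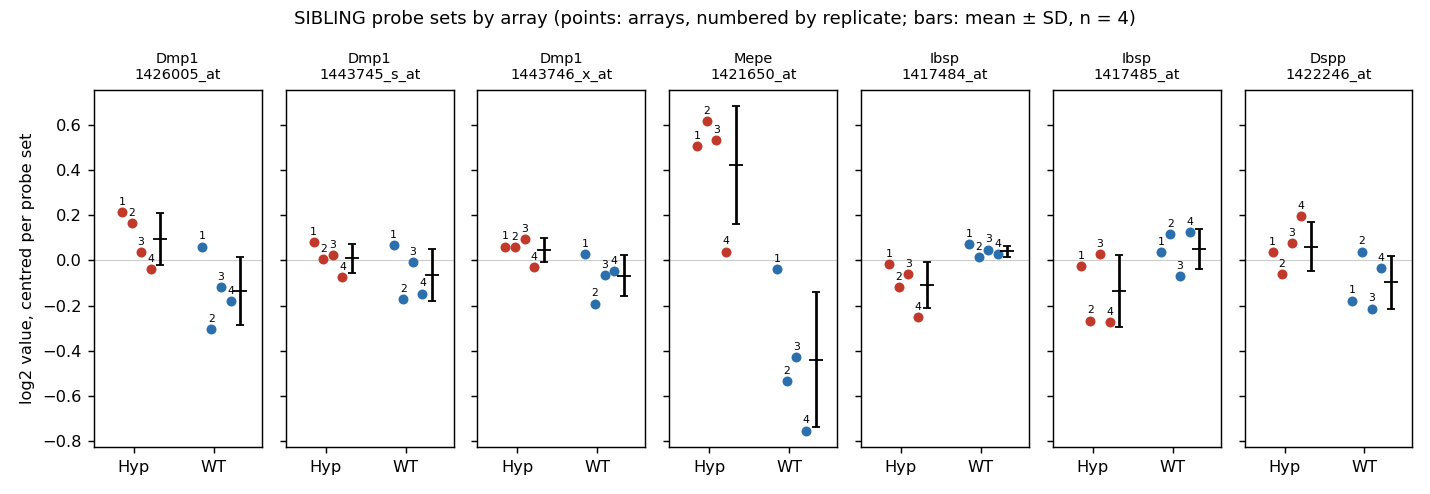
Centred log2 values (vertical axis) of the 7 SIBLING probe sets, 1 panel each, in Hyp arrays (red, left) and WT arrays (blue, right), with points numbered by replicate and bars for the mean ± SD (n = 4). For Mepe the Hyp points lie from 0.0396 to 0.619, above all WT points, while the other panels span a narrower range.

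Dmp1 encodes dentin matrix protein 1, an osteocyte protein whose loss in mice and people raises Fgf23 and impairs mineralization. At 1426005_at the values were 0.213, 0.167, 0.0380 and -0.0380 in Hyp bones, against 0.0612, -0.304, -0.119 and -0.18 in WT bones. The groups overlapped through WT replicate 1, which lay above Hyp replicates 3 and 4. The difference was 0.23 ± 0.09 (SE, 95% interval 0.03 to 0.43), which did not pass after adjustment (limma, adjusted p = 0.158). The other 2 probe sets, whose suffixes mark probes that may also match other transcripts, differed less. At 1443745_s_at the values were 0.0801, 0.00658, 0.0228 and -0.0734 in Hyp and 0.0690, -0.172, -0.00658 and -0.147 in WT, a difference of 0.07 ± 0.07 (SE; limma adjusted p = 0.597). At 1443746_x_at they were 0.0611, 0.0589, 0.0952 and -0.0292 in Hyp and 0.0292, -0.192, -0.0641 and -0.0464 in WT, a difference of 0.11 ± 0.07 (SE; limma adjusted p = 0.338). WT replicate 1 lay within the Hyp range at all 3 probe sets of Dmp1. The mean over them was 0.0502 ± 0.0702 in Hyp and -0.0891 ± 0.115 in WT (SD, n = 4 each), a difference of 0.14 with a 95% interval of -0.01 to 0.29.

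Ibsp encodes bone sialoprotein, an RGD protein of early mineralizing matrix that nucleates hydroxyapatite in vitro. It had the lowest difference of the 4 genes. At 1417484_at the values were -0.0157, -0.117, -0.0605 and -0.250 in Hyp bones, against 0.0716, 0.0157, 0.0486 and 0.0292 in WT bones. All Hyp arrays lay below all WT arrays, by a narrow gap. The difference was -0.15 ± 0.06 (SE, 95% interval -0.30 to -0.01), which did not pass (limma, adjusted p = 0.199). At 1417485_at the values were -0.0264, -0.267, 0.0264 and -0.275 in Hyp and 0.0355, 0.116, -0.0690 and 0.124 in WT. Here the groups overlapped through WT replicate 3 (difference -0.19 ± 0.09, SE; limma adjusted p = 0.235). Averaged over both probe sets, Ibsp differed by -0.17 ± 0.06 (SE, 95% interval -0.31 to -0.03; limma adjusted p = 0.117).

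Dspp encodes a precursor that is cut into dentin sialoprotein and dentin phosphoprotein and is chiefly a gene of odontoblasts, with little expression in bone. Its probe set 1422246_at had values of 0.0353, -0.0623, 0.0760 and 0.198 in Hyp bones, against -0.178, 0.0390, -0.214 and -0.0353 in WT bones. The groups overlapped. The difference was 0.16 ± 0.08 (SE, 95% interval -0.02 to 0.34; limma adjusted p = 0.276). Whether Dspp was detected cannot be read from centred values. Of 6 odontoblast and enamel markers, a list that holds Dspp itself, 1 fell (Ambn) and none rose. Of all genes, 6.32% fell and 6.54% rose. Klk4 and Mmp20, proteases of enamel matrix named after their values were seen, differed by 0.09 and -0.01.

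Over the family, 1 of 7 probe sets passed, and it was higher in Hyp. The background was 7.13% of all probe sets past the threshold in either direction and 3.22% in the higher direction. In 2 of 7 probe sets the groups did not overlap (Mepe and 1 of Ibsp), against 15.5% of all probe sets. Of the 4 gene means, 1 passed, against 12.9% of all genes. Hyp replicate 4 was the lowest Hyp array at 6 of the 7 probe sets, and WT replicate 1 was the highest WT array at 5 of 7. The same Hyp replicate had the lowest osteocyte marker mean of its group, at -0.399 against -0.205 to -0.0772 for the other 3. The same WT replicate had the highest of its group, at 0.300 against 0.0871 to 0.166 (14 genes, Phex and Fgf23 included). Hyp replicate 4 also had the lowest growth plate cartilage marker mean of its group, at 0.0421 against 0.295 to 0.453 for the other 3. There WT replicate 1 was not the highest of its group, at -0.339 against -0.450 to -0.128. The part of either list in the member values was not tested.

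The probe sets of 1 gene were compared within each array, as 4 pairs, to see how far they differed among themselves. At Dmp1, 1426005_at minus 1443745_s_at was 0.0861 ± 0.0716 in Hyp and -0.0711 ± 0.0603 in WT (SD, n = 4 each), a change of 0.16 ± 0.05 (SE; two-sided exact permutation p = 0.0286, the smallest that 4 against 4 arrays allow; adjusted over the 4 pairs, 0.114). The other 2 pairs of Dmp1 changed by 0.12 ± 0.06 and -0.04 ± 0.04 (adjusted exact p = 0.286 and 0.495). The pair of Ibsp changed by 0.04 ± 0.07 (adjusted exact p = 0.571). No pair passed after adjustment, although the size of the Dmp1 difference varied from 0.07 to 0.23 with the probe set.

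The members were then compared with each other within each array, since a shift shared by all of them cancels in such a difference. Of 6 pairs of gene means, 4 separated the groups without overlap. Mepe minus Ibsp was 0.548 ± 0.208 in Hyp and -0.487 ± 0.312 in WT (SD, n = 4 each), a change of 1.04 ± 0.19 (SE). Dmp1 minus Mepe was -0.375 ± 0.202 in Hyp and 0.351 ± 0.221 in WT, a change of -0.73 ± 0.15. Thus Mepe gained on both Dmp1 and Ibsp in Hyp bone. Dmp1 minus Ibsp was 0.173 ± 0.0878 in Hyp and -0.136 ± 0.133 in WT, a change of 0.31 ± 0.08. Ibsp minus Dspp was -0.185 ± 0.186 in Hyp and 0.144 ± 0.0929 in WT, a change of -0.33 ± 0.10. Each of these 4 pairs had a two-sided exact permutation p of 0.0286, the smallest possible, and 0.0429 after adjustment over the 6 pairs. These calls sat close to the threshold. All 4 passed when any 1 of Hyp replicates 1 and 3 and WT replicates 2 and 3 was left out. All 4 were lost when any 1 of Hyp replicates 2 and 4 and WT replicates 1 and 4 was left out (adjusted exact p from 0.0571 to 0.0857). Before adjustment, Mepe minus Ibsp kept an exact permutation p of 0.0286 in every repeat with 1 array left out. At this smallest p a pair passes the adjustment only when enough other pairs share it, so the 4 calls were kept or lost together. They were also lost with the most variable probe set of each gene. The sign of each of the 4 changes stayed the same in these repeats, and Ibsp lay lower in Hyp relative to each of the other 3 genes. Mepe minus Dspp changed by 0.71 ± 0.26 with overlap of the groups and missed the threshold (adjusted exact p = 0.0686). Dmp1 minus Dspp changed by -0.02 ± 0.14 (adjusted exact p = 0.886), which does not show that these 2 genes acted alike.

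**Figure D2:**
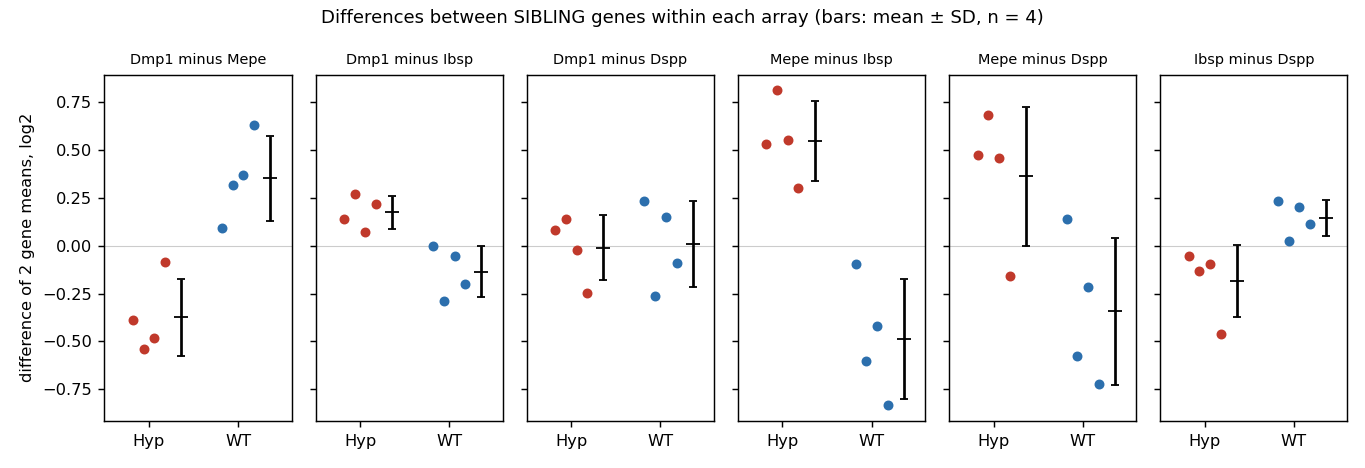
Difference of 2 gene means within each array (vertical axis, log2) for the 6 pairs of SIBLING genes, in Hyp (red, left) and WT (blue, right), with bars for the mean ± SD (n = 4). The Hyp and WT points do not overlap for Dmp1 minus Mepe, Dmp1 minus Ibsp, Mepe minus Ibsp and Ibsp minus Dspp.

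Osteoblasts and osteocytes are the main sources of these transcripts in bone. Nearly all of the measured osteoblast markers fell in Hyp bone, while osteocyte markers went both ways. Both lists were chosen with earlier results of these data known, so their counts and medians are a description and no test. Of 16 osteoblast markers 12 were measured, of which 11 fell and 1 rose (Col1a1, at 0.47, named after its value was seen and lost when any of Hyp replicates 2 and 3 or WT replicates 1, 2 and 4 was left out), with a median difference of -0.73 against 0.02 for all genes. Across all genes, 6.32% fell and 6.54% rose. Without WT replicate 3 and Hyp replicate 2, 10 osteoblast markers fell and 1 rose. The osteoblast marker mean ranged from -0.496 to -0.236 in Hyp and from 0.261 to 0.413 in WT. Among its defining genes, Alpl (alkaline phosphatase) fell by 0.21 and Sp7 (osterix) by 0.71. Of 15 osteocyte markers 14 were measured, of which 6 fell, 3 rose (Fgf23, Tnfrsf11b and Kcnk2) and 5 did not pass. Without WT replicate 3 and Hyp replicate 2, 5 osteocyte markers fell and 2 rose. Sost (sclerostin), a defining gene of that list, fell by 1.85. Each member was set against the mean of these lists within each array, a measure added after the data were seen and given as a description, with Phex and Fgf23 left out of the osteocyte list. Relative to the osteoblast mean, the Hyp minus WT change was 1.58 ± 0.19 for Mepe, 0.87 ± 0.11 for Dspp, 0.85 ± 0.08 for Dmp1 and 0.54 ± 0.08 for Ibsp (SE). Relative to the osteocyte mean it was 1.21 ± 0.13 for Mepe, 0.50 ± 0.15 for Dspp, 0.48 ± 0.03 for Dmp1 and 0.17 ± 0.08 for Ibsp. The lower marker means in Hyp were known beforehand, and a gene with no difference of its own would also lie higher against them, so these values carry no test and do not show that a member rose.

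Genes of other cells in the bone also differed, beside a background of 6.54% of all genes higher and 6.32% lower. Of 12 macrophage markers 8 rose and none fell, and their mean ranged from 0.172 to 0.354 in Hyp and from -0.341 to -0.205 in WT. Of 14 growth plate cartilage markers 7 rose and none fell, with means from 0.0421 to 0.453 in Hyp and from -0.450 to -0.128 in WT. That count was 2 without WT replicate 3 and Hyp replicate 2, 4 without Hyp replicate 2 or Hyp replicate 3 alone, 3 without WT replicate 1, and 1 in the plain linear model. Of the defining cartilage genes, Col10a1 rose by 2.57 and Col2a1 by 0.78 without overlap of the groups (limma adjusted p = 0.000227 and 0.00888). Acan rose by 0.59 with overlap (limma adjusted p = 0.0225). These genes were not followed singly through the alternatives. Of 7 measured erythroid markers 5 rose and none fell. Of 12 osteoclast markers 1 rose and 1 fell (the lower count was 0 to 2 with 1 array left out), and of the 14 muscle markers none passed, although their median difference was -0.62. The part of these cells in the difference of Mepe was not tested. The muscle marker means of the 2 groups overlapped, from -1.34 to 0.156 in Hyp and from -0.612 to 1.91 in WT.

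Enzymes that cut, phosphorylate, glycosylate or cross-link SIBLING proteins moved in both directions. Of 23 such genes, all measured, 6 rose and 7 fell, Phex included, against 6.54% and 6.32% of all genes. Their median difference was 0.04, against 0.02 for all genes. Without WT replicate 3 and Hyp replicate 2 the counts were 6 higher and 6 lower. With 1 array left out, 5 to 8 were lower. F13a1, the transglutaminase factor XIII A chain, rose by 1.08 ± 0.08 (SE; limma adjusted p = 3.54e-05). Arrays had 0.750, 0.631, 0.663 and 0.399 in Hyp bones, against -0.399, -0.598, -0.427 and -0.470 in WT bones, with no overlap. F13a1 is also expressed by macrophages, of whose 12 markers 8 rose. The part of macrophages in its difference was not tested. Pcsk6 and Pcsk5 encode furin-like proprotein convertases, and Pcolce an enhancer of the procollagen C-proteinase BMP1, which cuts DMP1 and DSPP. Pcsk6 fell by 1.25 ± 0.11, Pcsk5 by 0.69 ± 0.06 and Pcolce by 0.88 ± 0.10 (limma adjusted p = 6.3e-05, 7.81e-05 and 0.000229). The 5 probe sets of Pcsk5 disagreed in size, with a difference of -1.35 at the most variable one and -0.26 over those without a shared-probe suffix. Bmp1 itself differed by -0.30 with a slight overlap of the groups (limma adjusted p = 0.0432). That is close to the threshold, and Bmp1 was not followed singly through the alternatives. Galnt3, which glycosylates FGF23, differed by -0.44. Both genes were named after their values were seen. Fam20c, the kinase that phosphorylates SIBLING proteins, differed by 0.18 ± 0.11 and did not pass (limma adjusted p = 0.308). Fam20a, the pseudokinase partner of FAM20C, rose by 0.79 ± 0.10 (limma adjusted p = 0.000608). Its values were 0.460, 0.682, 0.444 and 0.206 in Hyp bones, against -0.206, -0.375, -0.261 and -0.526 in WT bones, with no overlap. Among the matrix metalloproteinases, named after their values were seen, Mmp7 and Mmp14 each rose by 0.28 (limma adjusted p = 0.0114 and 0.0151), while Mmp2, Mmp3, Mmp9 and Mmp12 did not pass, with differences of -0.25, 0.04, 0.04 and 0.11.

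**Figure D3:**
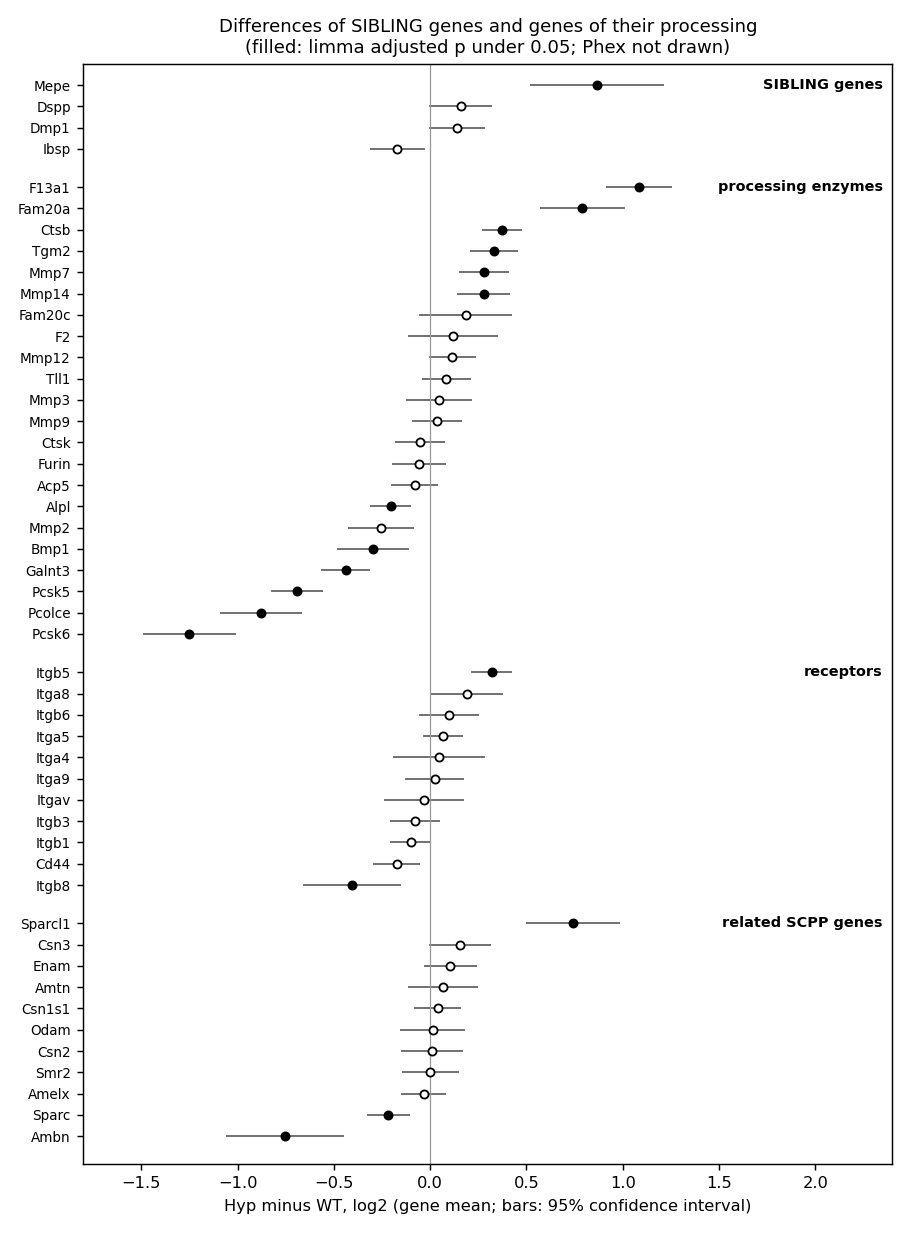
Hyp minus WT differences of gene means (horizontal axis, log2, with 95% confidence intervals) for the SIBLING genes, their processing enzymes, their receptors and related genes, with filled points for a limma adjusted p under the threshold. Mepe lies at 0.87 and the other 3 SIBLING genes between -0.17 and 0.16, while the enzymes lie on both sides of 0. Phex, at -6.67, is beyond the axis and not drawn.

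Of 12 receptors and binding partners, mostly integrin chains that bind the RGD motif, 11 were measured, of which 1 rose and 1 fell. The median difference was 0.02, the same as for all genes at this rounding. Of all genes, 6.54% rose and 6.32% fell. Itgb5, the chain that pairs with the alpha v integrin, rose by 0.32 ± 0.05 (SE; limma adjusted p = 0.00176), with Hyp values from 0.125 to 0.200 and WT values from -0.235 to -0.115. Itgb8, another partner of alpha v, fell by 0.41 ± 0.11 (limma adjusted p = 0.0411), but did not pass without WT replicate 3 and Hyp replicate 2 (adjusted p = 0.105). With 1 array left out its adjusted p ranged from 0.0359 to 0.119, and it passed only without Hyp replicate 3 or WT replicate 2. The defining chains Itgav, Itgb1 and Itgb3 differed by -0.03, -0.10 and -0.08, and Cd44, a hyaluronan receptor that also binds osteopontin, by -0.17. None of these 4 passed.

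Transcription factors with a known link to SIBLING promoters fell where they changed. Of 16 listed 13 were measured, of which 7 fell and none rose (median -0.22). Of all genes, 6.32% fell and 6.54% rose (median 0.02). The lower count was 8 without WT replicate 3 and Hyp replicate 2, and ranged from 5 to 8 over the alternatives. Runx2 was listed but not measured. Dlx5 and Dlx3, homeodomain factors of bone, fell by 0.42 ± 0.04 and 0.56 ± 0.07 (SE; limma adjusted p = 0.000182 and 0.000758). Dlx5 lay between -0.243 and -0.181 in Hyp and between 0.181 and 0.238 in WT. Sp7 fell by 0.71 ± 0.08, Mef2c, a factor active at the Sost enhancer, by 0.43 ± 0.08, and Twist1, an E-box factor that restrains osteoblast differentiation, by 0.89 ± 0.17 (limma adjusted p = 0.000199, 0.00431 and 0.00578). In the plain linear model Twist1 did not pass (adjusted p = 0.0554). Sp7 also stands in the osteoblast list. No binding of these factors to the windows shown above was measured here.

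Other matrix proteins of bone more often fell than rose, with 11 lower and 3 higher of 22 measured (26 listed, median -0.20). The background was 6.32% of all genes lower and 6.54% higher (median 0.02). Without WT replicate 3 and Hyp replicate 2, or without WT replicate 1, 7 were lower. The higher count was 1 when Hyp replicate 3 or either of WT replicates 1 and 2 was left out. Mgp, matrix Gla protein, an inhibitor of mineralization, rose by 1.14 ± 0.08 (SE; limma adjusted p = 3.54e-05). Arrays had 0.534, 0.448, 0.776 and 0.572 in Hyp bones and -0.722, -0.448, -0.531 and -0.519 in WT bones, with no overlap. The collagen-binding proteoglycans Lum and Fmod fell by 0.62 ± 0.06 and 0.86 ± 0.09, the fibril collagen Col5a2 by 0.65 ± 0.06 and Tnn, tenascin W, by 0.85 ± 0.09 (adjusted p = 0.000104, 0.000214, 0.000134 and 0.000234). Col1a1, Col1a2 and Sparc stand in a further list each. A list of the wider secretory calcium-binding phosphoprotein (SCPP) group, to which the SIBLING genes belong, also held the related genes Sparcl1 and Sparc. Of its 11 measured genes, 1 rose and 2 fell, against 6.54% and 6.32% of all genes. Sparcl1, a gene related to Sparc, rose by 0.74 ± 0.11 (limma adjusted p = 0.00162), with values of 0.172, 0.660, 0.432 and 0.347 in Hyp bones and -0.558, -0.214, -0.405 and -0.172 in WT bones. Ambn, an enamel protein gene, fell by 0.75 ± 0.14 and Sparc, osteonectin, by 0.22 ± 0.05 (limma adjusted p = 0.00567 and 0.0186). Ambn did not pass in the plain linear model (adjusted p = 0.0531). Sparc did not pass without WT replicate 1 (adjusted p = 0.0565), nor without WT replicate 3 and Hyp replicate 2 (adjusted p = 0.0661).

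Sparcl1 is also a neighbour, 3 genes before the cluster on chromosome 5. Of the 20 nearest annotated genes, 10 on each side, 6 were measured. Sparcl1 was the only one of these 6 past the threshold, against 12.9% of all genes. Hsd17b13, Hsd17b11 and Nudt9 before the cluster differed by 0.06, 0.20 and -0.01, and Thoc2l and Zfp33b after it by -0.10 and 0.05. Among the measured genes of the cluster and after it, Mepe was the 1 that passed.

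Among all 18193 genes, the 3 whose values over the 8 arrays lay nearest to those of Mepe were Ank, Fam20a and Klhdc8b. The measure was the root mean square difference over the arrays, which was 0.125, 0.136 and 0.137 for these genes and 0.496 for the median gene. Ank, which encodes a protein needed for the export of pyrophosphate, had values of 0.530, 0.491, 0.491 and 0.144 in Hyp bones, against -0.144, -0.492, -0.286 and -0.485 in WT bones. In Hyp replicate 4 and WT replicate 1 the values of Ank, like those of Mepe, lay nearest to the other group. Ank differed by 0.77 ± 0.10, Fam20a by 0.79 ± 0.10 and Klhdc8b, a kelch-repeat protein gene, by 0.81 ± 0.09 (SE). These genes were picked for their likeness to Mepe, so their differences are a description.

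**Figure D4:**
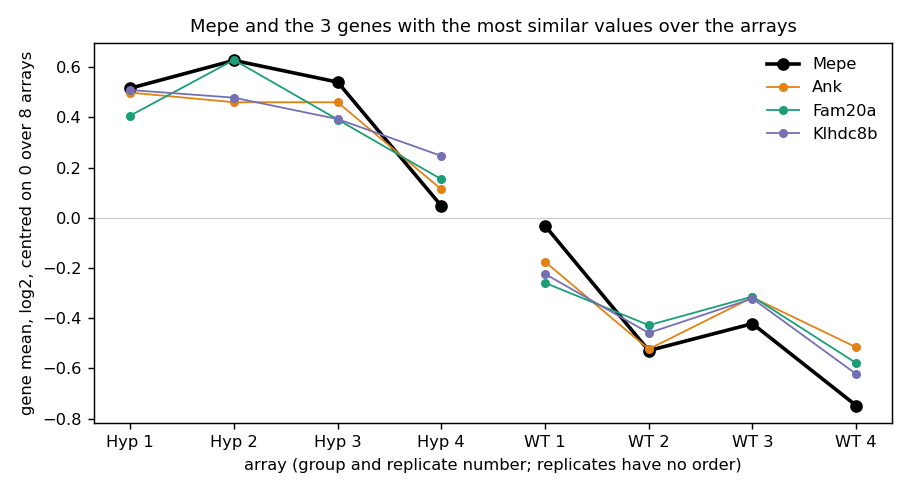
Gene means centred on 0 over the 8 arrays (vertical axis, log2) for Mepe (black) and the 3 genes nearest to it, by array (horizontal axis, Hyp left and WT right). The 4 genes lie above 0 in every Hyp array and below 0 in every WT array, nearest to 0 in Hyp replicate 4 and WT replicate 1.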

How the data were processed

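Total RNA was labelled with biotin by in vitro transcription for 3′ expression arrays, per the labels. The deposited log2 values are 1 per probe set and array, and RMA is named per the submitters' processing notes, with its version not given in the sources used here. The median of each probe set was 0 over the arrays, a centring no label mentions. The base of the logarithm was taken as 2, because spans of up to 8.92 units exceed the 4.82 units of a 16-bit scanner in log10. Depth does not apply to arrays, and their number limits the precision (median SE 0.081 per probe set).

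Of 45101 probe sets 64 controls were left out. The platform annotation gave 1 symbol to 34945, several to 932 and none here to 9160, and 34741 were matched to the RefSeq table (GRCm38.p6). Limma 3.58.1 in R 4.3.3 (lmFit, eBayes, no covariate, two-sided) was fitted to 45037 probe sets and, averaged per gene and array, to 18193 genes, with Benjamini-Hochberg adjustment over all features and a threshold of 0.05. Differences are Hyp minus WT. Pairs were tested by exact permutation, and the 6 pairs are those of the 4 genes measured. The procedure was tested on simulated data. Same-numbered arrays deviated together in part, with 5 of 8 arrays closest to their own number, but not throughout. The design as described states no block, so replicate numbers were not taken to pair the samples in the main fit. Whether they mark a shared batch was not tested.

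The members and lists were chosen with earlier results of these data known. Genes named were all members, Phex and Fgf23, up to 5 genes with the smallest p from each list of proteins linked to the family among those past the threshold, the defining genes of the marker lists as needed, the nearest measured neighbours, and the 3 genes most like a member that passed. Alternatives were the replicate block, further normalization, array weights, a filter on the SD, a robust prior, other probe set choices, a stricter threshold, a plain linear model, a muscle covariate and leaving out arrays.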

Additional observations from a re-analysis of the deposited data

Results flagged for a closer look

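In 64 groups of 4 arrays examined for the named genes, 3 held an array far from the other 3 by Dixon's criterion, which chance flags in about 1 of 20 groups. For Pcsk5, Hyp replicate 3 was at -0.248, against -0.401 to -0.387 in the other Hyp arrays. For Dlx3, WT replicate 1 was at 0.529, against 0.214 to 0.231 in the other WT arrays. For Ank, Hyp replicate 4 was at 0.144, against 0.491 to 0.530 in the other Hyp arrays. None of the 7 SIBLING probe sets held such an array by this criterion.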

How the results depend on the processing

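The Mepe difference kept its direction under all 21 alternatives of its gene mean (0.760 to 0.999) and its call under 20 of them. Not all of these could change it. The replicate block, robust prior, SD filter, stricter threshold and plain model leave the difference itself at 0.865. The other probe set choices reuse the 1 probe set of Mepe. The SD filter uses the SD over all arrays, which a group difference itself raises. The exception was a plain linear model, with a difference of 0.865 and adjusted p of 0.0516 for the gene mean and 0.071 for the probe set, so that 0 member probe sets passed there. Leaving out 1 array gave 0.760 to 0.999. The gene means of Dmp1 (0.0950 to 0.230), Ibsp (-0.213 to -0.123) and Dspp (0.113 to 0.204) kept their direction and were not called under any of their 21 alternatives, with the lowest adjusted p at 0.0503 for Ibsp after cyclic loess. With the replicate block, the Mepe gene mean differed by 0.865 ± 0.0945 (SE; adjusted p = 0.00146). Deviations of same-numbered arrays correlated at 0.145, -0.0437, 0.262 and 0.179, and 5 of 8 arrays correlated best with their own number, so the block is given here only. Among the genes followed singly through the alternatives, the block ended the call of Itgb8 (adjusted p = 0.0641) and no other. These were the members, the genes taken by smallest p from the lists linked to the family, Sparcl1 and the genes most like Mepe. Other named genes were not checked singly under the block. It moved the growth plate count to 3 higher, the osteoclast count to 2 lower and the muscle count to 2 lower. Calls over all probe sets, 1452 higher and 1760 lower, were 625 and 1055 without WT replicate 1, 827 and 1232 without Hyp replicate 2, 791 and 1252 without Hyp replicate 3, 791 and 1246 without WT replicate 4, and 907, 914 and 958 higher without Hyp replicate 1, Hyp replicate 4 and WT replicate 2. They were 965 higher with the SD filter, 955 with the plain model, 2206 with array weights, and 458 higher and 844 lower at an adjusted p of 0.01. Leaving out 1 array gave pair differences of -0.822 to -0.633 for Dmp1 minus Mepe, 0.258 to 0.354 for Dmp1 minus Ibsp, 0.920 to 1.17 for Mepe minus Ibsp and -0.371 to -0.237 for Ibsp minus Dspp, each past the threshold in 4 of 8 repeats (smallest exact p with 3 against 4 arrays 0.0286). With the most variable probe set per gene these were -0.635, 0.418, 1.05 and -0.346, with adjusted exact p of 0.0571, 0.0686, 0.0571 and 0.0571. In the plain linear model Mepe, Itgb8, Twist1 and Ambn lost their calls among the genes followed singly. Counts there were 1 higher for growth plate, 3 higher for erythroid, 0 lower for osteoclast, and 0 lower for odontoblast and enamel. Other matrix genes had 7 lower and 1 higher. Levels and signal over background cannot be read from centred values, so a filter on level was not run.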
